A study of Mus musculus with 16 samples.

Results

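Hepatic glucose uptake, glycolysis and glycogen storage were followed through 9 genes, Slc2a2, Gckr, Pklr, Pfkfb1, Pfkfb3, Gys2, Pygl, Ppp1r3b and Ppp1r3c, in the livers of conventional mice given caecal microbiota or vehicle. The genes were taken by name: a probe belonged to the set when the gene name in the scanner output equalled 1 of the 9 symbols. This gave 11 of the 56605 probes and 9 of the 37074 gene names on the array, and all 9 were among the 20348 genes kept as above background. The study asked whether caecal microbiota from obese donors changes metabolism in healthy recipients that already carry a gut flora. RNA was measured once per mouse on 16 one-colour Agilent arrays. All recipients were C57BL/6 males of 10 weeks with no engineered allele, kept on normal chow (NC) and not given antibiotics. The 6 Conv + PBS mice received the vehicle, reduced PBS, although their sample description calls them not transplanted. The 5 Conv + LM mice received caecal content of lean donors (lean microbiota). The 5 Conv + OM(HFD) mice received caecal content of donors made obese by a high-fat diet (HFD-microbiota). Recipients kept their own flora, were killed after a short fast, and had been housed in groups, so cage and group cannot be told apart where a cage held 1 group. The mice of a group were taken as replicates.

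The liver takes up glucose through the facilitative carrier GLUT2, phosphorylates it with glucokinase and then stores it as glycogen or splits it by glycolysis. Feeding raises insulin and glucose, which favour storage and glycolysis, and fasting raises glucagon, which favours glycogen breakdown. Part of this control lies in transcription, through SREBP-1c and the glucose-sensing factor ChREBP, and part lies in phosphorylation of the enzymes, which RNA levels do not show.

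The measured stretches and the start regions of a few members are printed to show what each value reads. Each probe is 60 bases long, and those of Slc2a2 and Pklr aligned across a gap in the genome, so that they read spliced RNA. The Slc2a2 probe lay at chr3:28625253-28625961 and the Pklr probe at chr3:88948907-88949425, both on the plus strand of mm9 as the scanner files give it.
Slc2a2 probe: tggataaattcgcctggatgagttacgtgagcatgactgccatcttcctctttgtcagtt
Pklr probe: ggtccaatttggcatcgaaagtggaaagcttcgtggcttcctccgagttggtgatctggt
The probes whose values are used for the other 7 genes aligned without a gap, as did the second Pfkfb1 probe but not the second Pfkfb3 probe. Examples are that of Gys2 at chr6:142371157-142371216 and that of Pygl at chr12:71291855-71291914, both on the minus strand of mm9.

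Start regions of 300 bases (250 before and 50 after the transcript start) from RefSeq, GRCm38.p6, were at hand for 7 of the 9 members, in 12 windows, and not for Gys2 and Ppp1r3b. They were searched on both strands for the carbohydrate response element, a spaced pair of E-box-like motifs that ChREBP binds, and for the plain E-box CACGTG. The carbohydrate response element was found in 1 of the 12 windows, 1 of the 2 of Pklr, and in 39 of all 32851 windows (0.119%). The 250 bases before that Pklr start, chr3:89136373-89136622 on the plus strand, are shown with that match in capitals, from -170 to -154.
Pklr upstream: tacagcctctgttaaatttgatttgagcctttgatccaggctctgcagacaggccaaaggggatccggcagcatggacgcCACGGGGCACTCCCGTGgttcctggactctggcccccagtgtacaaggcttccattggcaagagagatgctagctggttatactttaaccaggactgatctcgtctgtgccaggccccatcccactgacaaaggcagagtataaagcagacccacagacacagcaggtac
The E-box CACGTG was found in 2 of the 12 windows, that of Ppp1r3c and 1 of Pfkfb3, and in 2349 of all windows (7.15%). The 250 bases before the Ppp1r3c start, chr19:36736605-36736854 on the minus strand, are shown with the E-box in capitals, from -104 to -99.
Ppp1r3c upstream: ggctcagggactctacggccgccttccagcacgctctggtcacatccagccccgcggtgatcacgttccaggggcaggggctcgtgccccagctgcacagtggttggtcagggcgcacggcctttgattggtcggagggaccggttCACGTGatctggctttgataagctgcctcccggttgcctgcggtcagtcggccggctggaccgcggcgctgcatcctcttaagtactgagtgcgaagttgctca
A match of letters is a description of the window, and binding was not measured.

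Levels are given as log2 intensity minus the 75th percentile of the same array, so a level of 0 equals that percentile, and levels of different probes are not compared. The 75th percentile intensity was 223.1 to 323.7 over the 16 arrays, and 51.9% to 60.1% of spots were well above background. Hepatocyte markers were present throughout: 7 of the 8 listed genes were on the array, all 7 were above background on all 16 arrays, and the log2 of their sum was 12 to 12.3. Conv + PBS mouse 1 and Conv + OM(HFD) mouse 25 stood apart. The log2 of the summed neutrophil markers was 4.42 and 4.32 in these mice and at most 0.13 in the others, and that of the Kupffer cell markers was 7.04 and 5.90 against at most 5.09. Their part in the results was not tested, and the group differences of the 9 genes against Conv + PBS are also given without them. In whole liver, fewer cells of a type and less RNA per cell cannot be told apart.

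Among the uptake and sensing genes, Slc2a2 had its lowest mean in the Conv + OM(HFD) mice. Slc2a2 encodes GLUT2, the carrier through which hepatocytes take up glucose. Its level was 2.36 to 3.16 in the Conv + PBS mice, with a median of 2.63. It was 2.66, 3.07, 2.62, 2.53 and 2.05 in Conv + LM mice 13 to 17. It was 2.04, 2.72, 2.44, 1.92 and 2.31 in Conv + OM(HFD) mice 25, 26, 28, 29 and 30. The groups overlapped, with 4 of the 5 Conv + OM(HFD) mice below the vehicle median and mouse 26 above it. Conv + OM(HFD) was lower than Conv + PBS by a log2 difference of -0.40 (SE 0.19, 95% interval -0.79 to -0.00; limma p = 0.0489, adjusted p = 1.0), and the exact permutation test gave p = 0.0541. The difference was -0.54 on slide 1 and -0.24 on slide 2. The limma p was 0.116 without Conv + PBS mouse 2, where the difference was -0.30. It was 0.0718 and 0.0834 without Conv + PBS mouse 3 or 4, and 0.113, 0.134 and 0.0694 without Conv + OM(HFD) mouse 25, 29 or 30. It was 0.0556 after quantile normalization and 0.0569 without the filter on dim probes, and the methods' t-test gave 0.0560.

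Gckr encodes the glucokinase regulatory protein, which holds glucokinase inactive in the nucleus when glucose is low. Its level was 6.19 to 6.71 in the Conv + PBS mice (median 6.38), 6.06 to 6.58 in the Conv + LM mice (median 6.46) and 6.14 to 6.43 in the Conv + OM(HFD) mice (median 6.31). The 3 groups overlapped almost fully. Conv + OM(HFD) differed from Conv + PBS by -0.10 on the log2 scale (SE 0.11, 95% interval -0.33 to 0.13; limma p = 0.359, exact permutation p = 0.333). From Conv + LM it differed by -0.11 (limma p = 0.331, exact permutation p = 0.310), and all 5 Conv + OM(HFD) mice were below the Conv + LM median.

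Among the glycolytic genes, Pklr varied widely within the vehicle group and little among the Conv + OM(HFD) mice. Pklr encodes liver pyruvate kinase, the last step of glycolysis and a known ChREBP target. Its level in Conv + PBS mice 1 to 6 was 0.27, 1.36, 0.75, 1.50, 0.87 and 0.09. It was 1.02, 0.81, 0.39, 0.34 and 0.15 in Conv + LM mice 13 to 17, and 0.09, 0.72, 0.21, 0.39 and 0.30 in Conv + OM(HFD) mice 25, 26, 28, 29 and 30. All 5 Conv + OM(HFD) mice were below the vehicle median of 0.81, but Conv + PBS mouse 1 lay within their range and mouse 6 just below it, so the groups overlapped. The log2 difference of Conv + OM(HFD) from Conv + PBS was -0.46 (SE 0.24, 95% interval -0.98 to 0.05; limma p = 0.0726, exact permutation p = 0.123), with -0.79 on slide 1 and -0.07 on slide 2. The limma p was 0.0318 without Conv + PBS mouse 1 (difference -0.57), 0.0169 without Conv + PBS mouse 6 (-0.61) 0.0463 without Conv + OM(HFD) mouse 26 (-0.56) and 0.0376 with array weights (-0.49). Conv + LM differed from Conv + PBS by -0.26 (limma p = 0.292, exact permutation p = 0.392).

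Pfkfb1 and Pfkfb3 encode bifunctional enzymes that make and remove fructose-2,6-bisphosphate, the activator of phosphofructokinase. Pfkfb1 is the liver form. Its level was 3.38 to 3.86 in the Conv + PBS mice, with a median of 3.78 (a second Pfkfb1 probe read -1.18 to -0.18 over all 16 mice). It was 4.00, 3.98, 4.06, 3.92 and 3.77 in Conv + LM mice 13 to 17, and 3.52 to 4.16 in the Conv + OM(HFD) mice. In the Conv + LM group 4 of the 5 mice were above the vehicle median and mouse 17 was not. On the log2 scale Conv + LM differed from Conv + PBS by 0.23 (SE 0.12, 95% interval -0.02 to 0.47; limma p = 0.0679, exact permutation p = 0.0281). It was 0.16 on slide 1 and 0.31 on slide 2. Without Conv + PBS mouse 1 it was 0.16 (limma p of 0.161, exact permutation p = 0.0476). The limma p was 0.0437 without Conv + LM mouse 17 (difference 0.27), 0.0462 after quantile normalization, 0.0301 with the authors' processed values and 0.0459 when only these groups were fitted. The methods' t-test gave 0.0360.

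Pfkfb3, the inducible form, ranged from 1.46 to 3.59 in the Conv + PBS mice, from 2.75 to 3.30 in the Conv + LM mice and from 2.04 to 3.22 in the Conv + OM(HFD) mice. Mouse 1 and mouse 25, which had the high neutrophil markers, were the lowest of their groups. Conv + OM(HFD) differed from Conv + PBS by -0.07 on the log2 scale (95% interval -0.77 to 0.63; limma p = 0.834, exact permutation p = 0.859), and the difference had opposite signs on slide 1 (-0.75) and slide 2 (0.72). With the mean of both Pfkfb3 probes it was 0.27, and -0.03 without Conv + OM(HFD) mouse 28. The second Pfkfb3 probe was well above background on 13 of the 16 arrays, with a mean level of -3.58, and read -1.26 in mouse 28 against -4.02 to -3.42 in the other Conv + OM(HFD) mice.

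Among the glycogen genes, Gys2 had a lower mean in both inoculated groups than in Conv + PBS. Gys2 encodes liver glycogen synthase. Its level in Conv + PBS mice 1 to 6 was 6.78, 7.06, 7.07, 7.07, 6.99 and 7.04. It was 6.79, 6.88, 6.62, 6.93 and 6.71 in Conv + LM mice 13 to 17, and 6.70, 6.78, 6.92, 6.95 and 6.89 in Conv + OM(HFD) mice 25, 26, 28, 29 and 30. Vehicle mice 2 to 6 were above all 10 inoculated mice, and mouse 1 lay among them. The log2 difference of Conv + LM from Conv + PBS was -0.21 (SE 0.08, 95% interval -0.39 to -0.04; limma p = 0.0184, adjusted p = 0.997, exact permutation p = 0.0195), and it was -0.20 and -0.21 on the 2 slides. That of Conv + OM(HFD) was -0.15 (SE 0.08, 95% interval -0.33 to 0.02; limma p = 0.0755, exact permutation p = 0.0498). The Conv + LM difference had a limma p of 0.0579 without Conv + LM mouse 15 (-0.17), 0.0574 after quantile normalization and 0.0608 with the authors' processed values. The Conv + OM(HFD) difference had a limma p of 0.0219 without Conv + PBS mouse 1 (-0.20), and a p of 0.0453 by the methods' t-test. Both comparisons share the 6 Conv + PBS mice.

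Pygl had its lowest mean in the Conv + OM(HFD) mice. Pygl encodes liver glycogen phosphorylase, which releases glucose units from glycogen. Its level in Conv + PBS mice 1 to 6 was 6.89, 7.09, 6.71, 7.13, 6.88 and 6.64. It was 6.93, 6.77, 6.88, 6.56 and 6.74 in Conv + LM mice 13 to 17, and 6.58, 6.64, 6.49, 6.69 and 6.69 in Conv + OM(HFD) mice 25, 26, 28, 29 and 30. All 5 Conv + OM(HFD) mice were below the vehicle median of 6.88 and below the Conv + LM median of 6.77, and the groups overlapped only through Conv + PBS mouse 6 and Conv + LM mouse 16. The log2 difference of Conv + OM(HFD) from Conv + PBS was -0.27 (SE 0.10, 95% interval -0.48 to -0.06; limma p = 0.0142, adjusted p = 1.0, exact permutation p = 0.0195), which is a change of -17.2% in level. It was -0.30 on slide 1 and -0.22 on slide 2, and its limma p stayed between 0.0045 and 0.0397 when each mouse was left out in turn. Against Conv + LM the log2 difference was -0.16 (95% interval -0.38 to 0.06; limma p = 0.146, exact permutation p = 0.0714). Conv + LM differed from Conv + PBS by -0.11 (limma p = 0.262, exact permutation p = 0.299).

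Ppp1r3b and Ppp1r3c encode subunits that bring protein phosphatase 1 to glycogen, where it activates glycogen synthase and inactivates phosphorylase. Ppp1r3b, the main hepatic form, had levels of 6.65 to 7.31 in the Conv + PBS mice, 6.84 to 7.44 in the Conv + LM mice and 6.88 to 7.22 in the Conv + OM(HFD) mice. The log2 difference from Conv + PBS was 0.05 for Conv + OM(HFD) (95% interval -0.25 to 0.35) and 0.13 for Conv + LM, and the latter was 0.06 without Conv + PBS mouse 1. Ppp1r3c ranged more widely, from -0.07 to 1.83 in the Conv + PBS mice, from 0.64 to 2.79 in the Conv + LM mice and from 0.70 to 3.0 in the Conv + OM(HFD) mice. Conv + PBS mouse 1 was the lowest of all mice for both genes. For Ppp1r3c the log2 difference from Conv + PBS was 0.25 for Conv + OM(HFD) (95% interval -0.73 to 1.23; exact permutation p = 0.658) and 0.34 for Conv + LM (95% interval -0.63 to 1.32; exact permutation p = 0.506). For the latter it was -0.32 on slide 1 and 0.91 on slide 2. Without Conv + PBS mouse 1 the Ppp1r3c difference was -0.03 for Conv + OM(HFD) and 0.06 for Conv + LM.

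**Figure D1:**
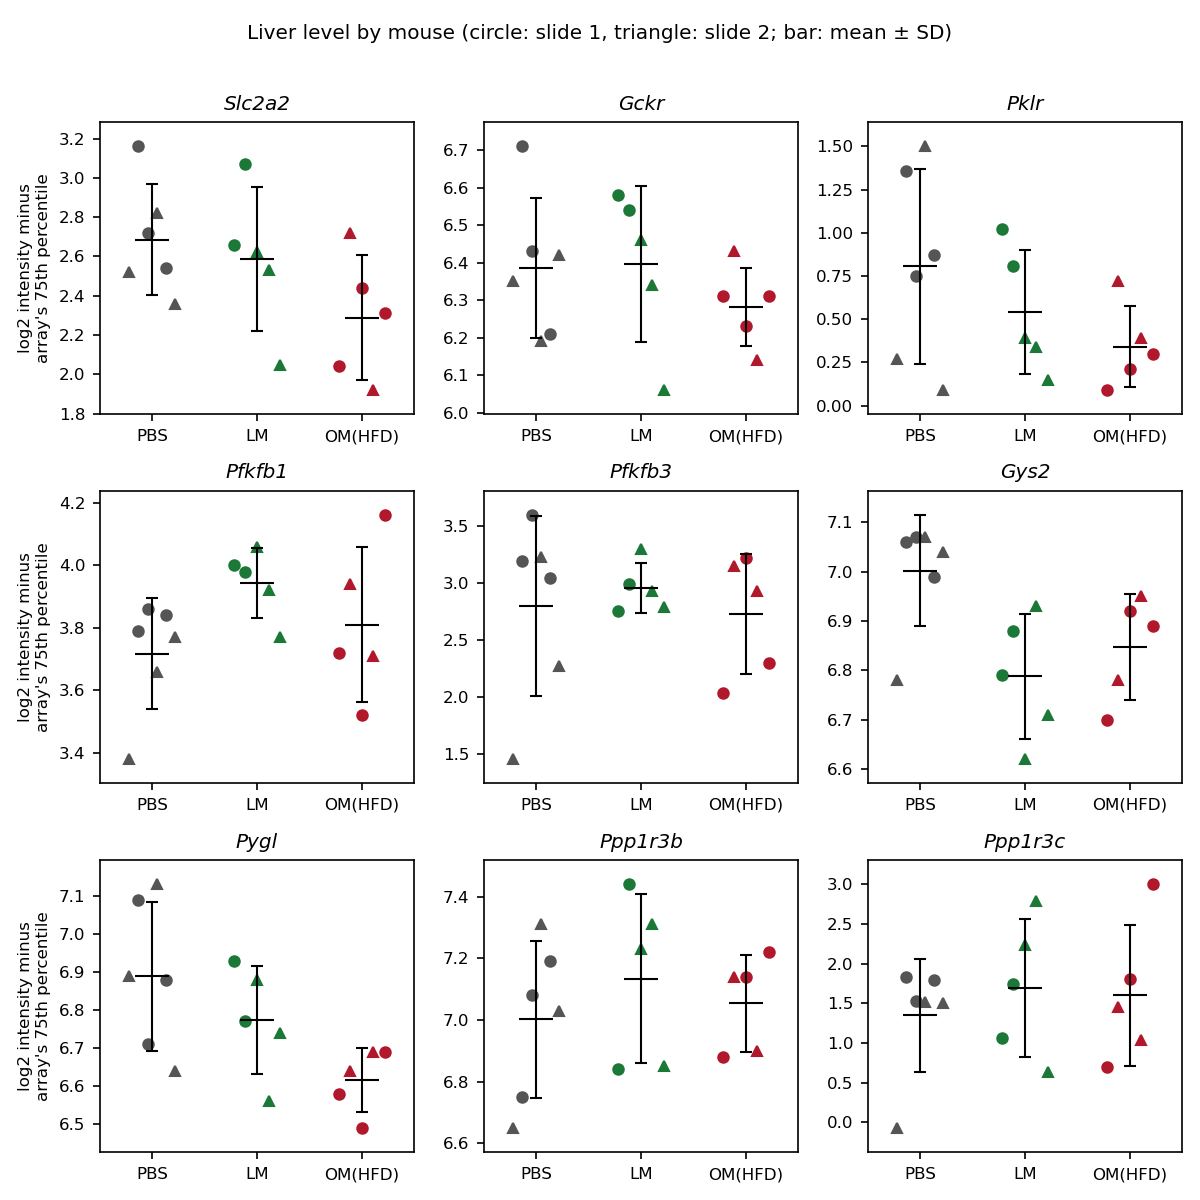
Level of each of the 9 genes (vertical axis: log2 intensity minus the array's 75th percentile) in each mouse, by group (6 Conv + PBS, 5 Conv + LM, 5 Conv + OM(HFD)), with the group mean and SD. The Pygl points of the Conv + OM(HFD) mice lie between 6.49 and 6.69, and mouse 1 lies alone at the bottom of the vehicle group for Ppp1r3c at -0.07.

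Set side by side, 2 of the 9 genes (Slc2a2 and Pygl, both lower) had an unadjusted limma p under 0.05 in Conv + OM(HFD) vs. Conv + PBS, where 3.28% of all 20348 genes had one and 1.73% were lower. In Conv + LM vs. Conv + PBS it was 1 of the 9, Gys2, which was lower, beside 3.96% of all genes and 2.24% lower. Between Conv + OM(HFD) and Conv + LM it was 0 of the 9 by limma and 0 by the exact permutation test, beside 2.71% and 3.10% of all genes. None of the 9 had an adjusted p under 0.05 in any comparison, and neither did any other gene (0% of 20348 in each). By the exact permutation test, 2 of the 9 were under 0.05 in Conv + OM(HFD) vs. Conv + PBS (Pygl and Gys2), beside 3.22% of all genes, and 2 in Conv + LM vs. Conv + PBS (Gys2 and Pfkfb1), beside 4.01%. For all 9 genes the groups overlapped in each comparison, and 0.236%, 0.285% and 0.462% of all genes had groups that did not. Counted without a test, 6 of the 9 were lower in Conv + OM(HFD) vs. Conv + PBS, 4 in Conv + LM vs. Conv + PBS and 8 in Conv + OM(HFD) vs. Conv + LM, where 50.2%, 54.1% and 47.4% of all genes were lower. The median log2 difference of the 9 was -0.10, 0.01 and -0.13, against 0.00, -0.01 and 0.01 over all genes. The median in Conv + LM vs. Conv + PBS had no settled sign: it was -0.11 without Conv + PBS mouse 1 and 0.09 without Conv + LM mouse 17. The median in Conv + OM(HFD) vs. Conv + PBS was 0.02 with the mean of the fed-state genes as a further term.

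**Figure D2:**
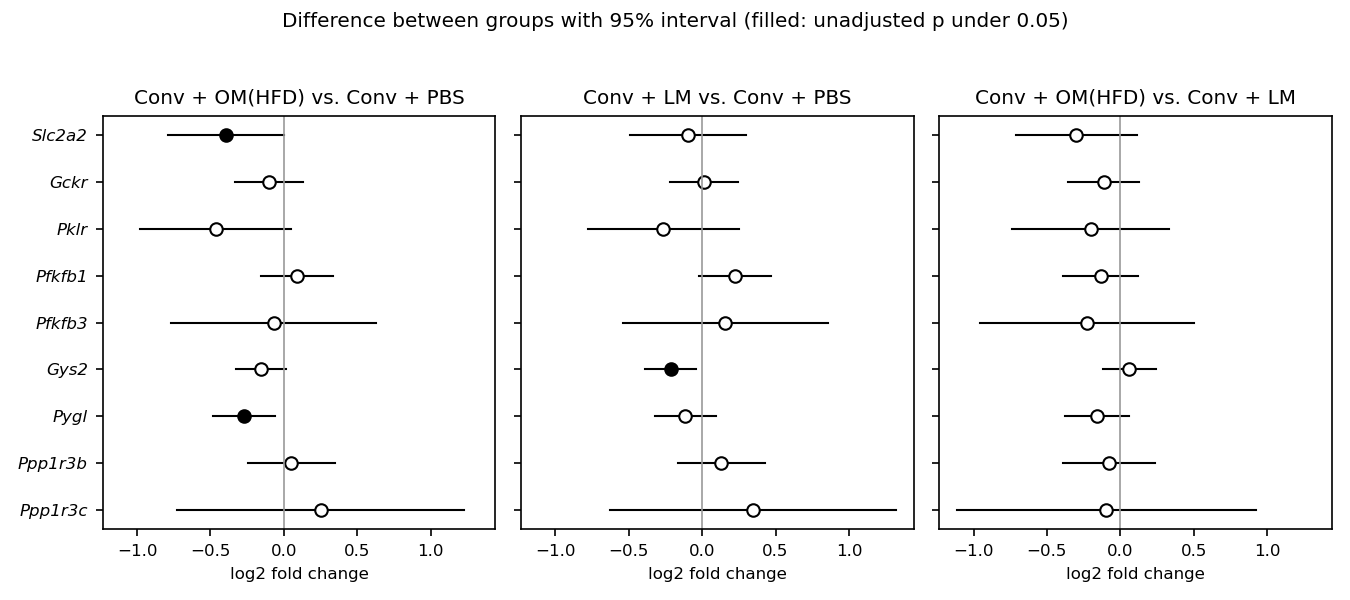
Log2 difference of each gene with its 95% interval from limma (horizontal axis: log2 difference between group means; 0 marks no difference) in the 3 comparisons. In Conv + OM(HFD) vs. Conv + PBS the intervals of Pygl (-0.48 to -0.06) and Slc2a2 (-0.79 to -0.00) end below 0, and in Conv + LM vs. Conv + PBS that of Gys2 does (-0.39 to -0.04).

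The counts moved with single mice. Without Conv + PBS mouse 1, 4 of the 9 had an unadjusted p under 0.05 in Conv + OM(HFD) vs. Conv + PBS (Pygl, Slc2a2, Gys2 and Pklr), beside 3.85% of all genes in the same fit and 2.33% lower. Without Conv + PBS mouse 2, 3 or 4 or Conv + OM(HFD) mouse 25, 29 or 30 only 1 did, Pygl, beside 2.79% to 3.32% of all genes. It was also 1 without Conv + LM mouse 13, 15 or 16, which enter this comparison only through the shared spread. In Conv + LM vs. Conv + PBS the count was 0 without Conv + LM mouse 15, and 2 without Conv + LM mouse 17 or Conv + OM(HFD) mouse 30, beside 3.64%, 4.44% and 3.88% of all genes. It was 1 without Conv + LM mouse 17 in Conv + OM(HFD) vs. Conv + LM, where Slc2a2 differed by -0.43 with a limma p of 0.0336, beside 3.61% of all genes. Results were also computed with both Conv + PBS mouse 1 and Conv + OM(HFD) mouse 25 left out, a setting added once the values had been seen. In Conv + OM(HFD) vs. Conv + PBS the exact permutation test of 4 against 5 mice then gave p = 0.0714 for Pygl (difference -0.26, limma p of 0.0400), 0.135 for Slc2a2 (-0.37, limma p of 0.104) and 0.151 for Pklr (-0.51, limma p of 0.0698). For Gys2 the groups no longer overlapped (-0.16, limma p of 0.0608), and they did not in Conv + LM vs. Conv + PBS either (-0.26, limma p of 0.00388), beside 1.12% and 0.624% of all genes with these mice left out. Mouse 1 was the only vehicle mouse among the inoculated ones for Gys2, so the exact permutation p of 0.00794, the smallest possible in both, follows from leaving it out. For the other genes in Conv + OM(HFD) vs. Conv + PBS the difference was then -0.12 for Gckr, 0.05 for Pfkfb1, -0.17 for Pfkfb3, 0.03 for Ppp1r3b and 0.19 for Ppp1r3c. With mouse 1 left out it was, in Conv + LM vs. Conv + PBS, -0.13 for Slc2a2, 0.00 for Gckr, -0.37 for Pklr, -0.11 for Pfkfb3 and -0.12 for Pygl.

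Of 66 other genes listed for glucose and fructose uptake, glycolysis, glycogen turnover and their control, 63 were above background, and Ppp1r3a and Ppp1r3f were among those that were not. In Conv + OM(HFD) vs. Conv + PBS, 43 were lower and 20 higher (median -0.07), and 2 (3.17%, beside 3.28% of all genes) had an unadjusted limma p under 0.05, both lower. In Conv + LM vs. Conv + PBS, 41 were lower and 22 higher (median -0.07), with 3 lower and 1 higher at that p (6.35%, beside 3.96%). Between Conv + OM(HFD) and Conv + LM, 33 were lower and 30 higher (median -0.01), with 1 lower at that p (1.59%, beside 2.71%). The shares at that p in the first and last comparison were below those of all genes, of which 50.2%, 54.1% and 47.4% were lower in the 3 comparisons, and the genes named next are given as values. None had an adjusted p under 0.05 by limma. The count in Conv + OM(HFD) vs. Conv + PBS was 4 without Conv + OM(HFD) mouse 30. In Conv + LM vs. Conv + PBS it was 0 without Conv + PBS mouse 5, 1 without Conv + PBS mouse 4, and 2 without Conv + PBS mouse 2 or Conv + LM mouse 15 or 16. For Conv + OM(HFD) vs. Conv + LM it was 0 without Conv + LM mouse 13 or Conv + OM(HFD) mouse 29, 2 without Conv + OM(HFD) mouse 26, and 4 without Conv + LM mouse 17.

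By role, 8 of the 9 genes of glucose and fructose uptake and phosphorylation were lower in Conv + OM(HFD) vs. Conv + PBS, and 1 of them, Khk, had a p under 0.05. Khk encodes ketohexokinase, which phosphorylates fructose. Its level was 7.82 to 8.08 in the Conv + PBS mice (median 7.91), 7.36 to 7.93 in the Conv + LM mice and 7.26 to 7.85 in the Conv + OM(HFD) mice. All 5 Conv + OM(HFD) mice were below the vehicle median, and only mouse 30 lay within the vehicle range. The log2 difference was -0.37 (SE 0.11; limma p = 0.00584, exact permutation p = 0.00433) for Conv + OM(HFD) and -0.26 (limma p = 0.0365, exact permutation p = 0.0216) for Conv + LM. These comparisons share the Conv + PBS mice and are not independent. Without mice 1 and 25 the Khk differences were -0.30 and -0.27 (limma p of 0.0250 and 0.0292). The Khk difference in Conv + LM had a limma p over 0.05 without Conv + PBS mouse 2, 4 or 5 or Conv + LM mouse 15, 16 or 17, with differences from -0.26 to -0.19. It was 0.0507 after quantile normalization, 0.0734 with the authors' processed values (-0.23) and 0.0753 with the mean of all probes (-0.22). With the mean of the fed-state genes described later as a further term, the Khk difference was -0.24 in Conv + OM(HFD) (limma p of 0.0874) and -0.21 in Conv + LM (limma p of 0.0767).

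Among 8 genes of glycogen synthesis, 6 were lower in each inoculated group than in Conv + PBS, and Gbe1 had a p under 0.05 in both. The comparisons share the 6 Conv + PBS mice, so they are not independent. Gbe1 encodes the glycogen branching enzyme. Its level was 4.48 to 4.83 in the Conv + PBS mice, 4.15 to 4.76 in the Conv + LM mice and 3.62 to 4.58 in the Conv + OM(HFD) mice, mouse 25 being the lowest. The log2 difference was -0.44 (limma p = 0.0124, exact permutation p = 0.0173) for Conv + OM(HFD) and -0.35 (limma p = 0.0419, exact permutation p = 0.0325) for Conv + LM. Without mice 1 and 25 the Gbe1 differences were -0.33 and -0.39 (limma p of 0.0216 and 0.00586). In Conv + LM its limma p was over 0.05 without any 1 of Conv + PBS mice 2, 3, 4 and 5 or Conv + LM mice 13, 14, 16 and 17, with differences from -0.34 to -0.30. It was 0.0884 with the mean of all probes (-0.27), 0.0506 without the filter on dim probes, 0.0503 with slide as a block and 0.0545 with the fed-state mean as a term (-0.35). None of 13 genes of glycogen breakdown, none of the 6 measured genes of protein phosphatase 1 and its targeting subunits and neither of 2 further genes of fructose-2,6-bisphosphate had an unadjusted limma p under 0.05 in any comparison.

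Among 16 glycolytic genes, Gpi1 had an unadjusted p under 0.05 in Conv + LM vs. Conv + PBS. Gpi1 encodes glucose-6-phosphate isomerase. Its level was 6.35 to 7.03 in the Conv + PBS mice and 6.22 to 6.44 in the Conv + LM mice, all 5 of them below the vehicle median of 6.58. The log2 difference was -0.29 (limma p = 0.0237, exact permutation p = 0.0390), with limma p-values of 0.0527, 0.0520 and 0.0541 without Conv + PBS mouse 4, Conv + PBS mouse 5 or Conv + LM mouse 15, where it was -0.20, -0.25 and -0.26. With the mean of all probes the Gpi1 difference was -0.17 (limma p of 0.144).

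The only listed gene with a p under 0.05 in Conv + OM(HFD) vs. Conv + LM was Hkdc1, a hexokinase-like gene close to background. Its probe was well above background on 4 of 6 Conv + PBS, 3 of 5 Conv + LM and 1 of 5 Conv + OM(HFD) arrays. The log2 difference was -0.97 (limma p = 0.0340, exact permutation p = 0.0873). It was -0.89 without Conv + LM mouse 13 (limma p of 0.0691), -0.79 without Conv + LM mouse 16 (limma p of 0.0901) and -0.55 without Conv + OM(HFD) mouse 29 (limma p of 0.101). With normexp background correction it was -0.06 (limma p of 0.537) and with the authors' processed values -0.25 (limma p of 0.0583). The limma p was 0.0672 when only these groups were fitted and 0.0503 without mice 1 and 25, and the methods' t-test gave 0.106.

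The spread between mice of a group differed widely among the 9 genes. The SD within groups was 0.12 for Gys2 and 0.82 for Ppp1r3c on the log2 scale, against a median of 0.24 over all genes. Ppp1r3c was at percentile 95.9 of all genes by this SD, Pfkfb3 at 89.1, Pklr at 78.8 and Slc2a2 at 66.8. Pygl was at percentile 21.4 and Gys2 at 7.39. Over all 16 mice the level of Ppp1r3c spanned 8.39-fold, that of Pfkfb3 4.38-fold, that of Pklr 2.65-fold and that of Gys2 1.36-fold. Without Conv + PBS mouse 1 the span was 5.13-fold for Ppp1r3c and 2.93-fold for Pfkfb3. The groups accounted for 44.1% of the variance between mice for Gys2, 40.0% for Pygl, 25.3% for Slc2a2 and 20.4% for Pklr, and for 3.91% and 3.0% for Ppp1r3c and Pfkfb3. Part of such a share arises from the spread between mice alone, also where groups do not differ. The share over all genes is not given here, so these values are a description.

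Variation between mice of a group was set against 3 scores. Each score was the mean, over a fixed list, of the genes' deviations from their group means in units of their SD within groups: 12 fed-state lipogenic genes such as Fasn and Scd1, 14 fasting-induced genes such as Pck1 and Pdk4, and 11 of 12 clock genes, counted as those in phase with Arntl minus those opposite to it (Npas2 was not above background). None of the 9 genes is in a score. With each other the scores had a Pearson r of -0.49 (fed-state and fasting), -0.70 (fed-state and clock) and 0.75 (fasting and clock), so they are not separate measures. In all, 27 relations of a gene with a score were computed over the 16 mice. A limma fit with the group as a term gave the adjusted p over all genes.

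The fed-state score went with 4 of the 9 genes at an unadjusted limma p under 0.05, all in the positive direction. Of all genes 16.4% had such a p and 7.69% had it in the positive direction. Pklr had an r of 0.74 (permutation p = 0.00188) and a rho of 0.72 (permutation p = 0.00373), and moved by 0.31 (SE 0.08) on the log2 scale per SD of the score (limma p = 0.00118, adjusted p = 0.104). Its r was 0.77 on slide 1 and 0.73 on slide 2. It was 0.62 without Conv + PBS mouse 6 and Conv + LM mouse 13, the mice farthest from the median of the score, and 0.86 without mice 1 and 25.

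Slc2a2 had an r of 0.64 (permutation p = 0.0144) and a rho of 0.62 (permutation p = 0.0185) with the fed-state score (limma p = 0.00919, adjusted p = 0.169). Its r was 0.27 on slide 1 and 0.82 on slide 2, 0.65 without mice 6 and 13, and 0.72 without mice 1 and 25. Pygl had an r of 0.62 (permutation p = 0.0199) and a rho of 0.56 (permutation p = 0.0389; limma p = 0.0283, adjusted p = 0.249), with 0.71 and 0.68 on the 2 slides and 0.45 without mice 6 and 13. Gckr had a rho of 0.57 (permutation p = 0.0473) and an r with permutation p = 0.0384 (limma p = 0.0345, adjusted p = 0.267), with an r of 0.58 and 0.38 on the 2 slides and 0.65 without mice 6 and 13. The limma p of Pygl was 0.0724, 0.118, 0.0635 and 0.0768 without Conv + PBS mouse 2 or 6 or Conv + LM mouse 13 or 16, with slopes of 0.08, 0.07, 0.08 and 0.08. That of Gckr was between 0.0502 and 0.111 without Conv + PBS mouse 2, Conv + LM mouse 13, 14 or 17 or Conv + OM(HFD) mouse 26 or 29, with slopes from 0.07 to 0.10. With the clock score as a further term the slope of Slc2a2 on the fed-state score was 0.13 (limma p of 0.108) against 0.21 without it, and that of Gckr was 0.05 (limma p of 0.311) against 0.10. Gckr also had a limma p of 0.117 with slide as a block (slope 0.08) and of 0.0503 without mice 1 and 25, while Pfkfb1 had one of 0.0314 with the clock score as a term (slope 0.11). The fed-state score had an r of 0.26 with Pfkfb1, 0.14 with Pfkfb3, -0.12 with Gys2, -0.08 with Ppp1r3b and -0.12 with Ppp1r3c. The r with this score also varied by group. For Pygl it was 0.76 in Conv + PBS, 0.69 in Conv + LM and 0.12 in Conv + OM(HFD) mice. In the same order it was 0.21, 0.84 and 0.82 for Gckr, 0.77, 0.72 and 0.36 for Slc2a2, and 0.76, 0.98 and 0.43 for Pklr. Whether r differed between groups was not tested.

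**Figure D3:**
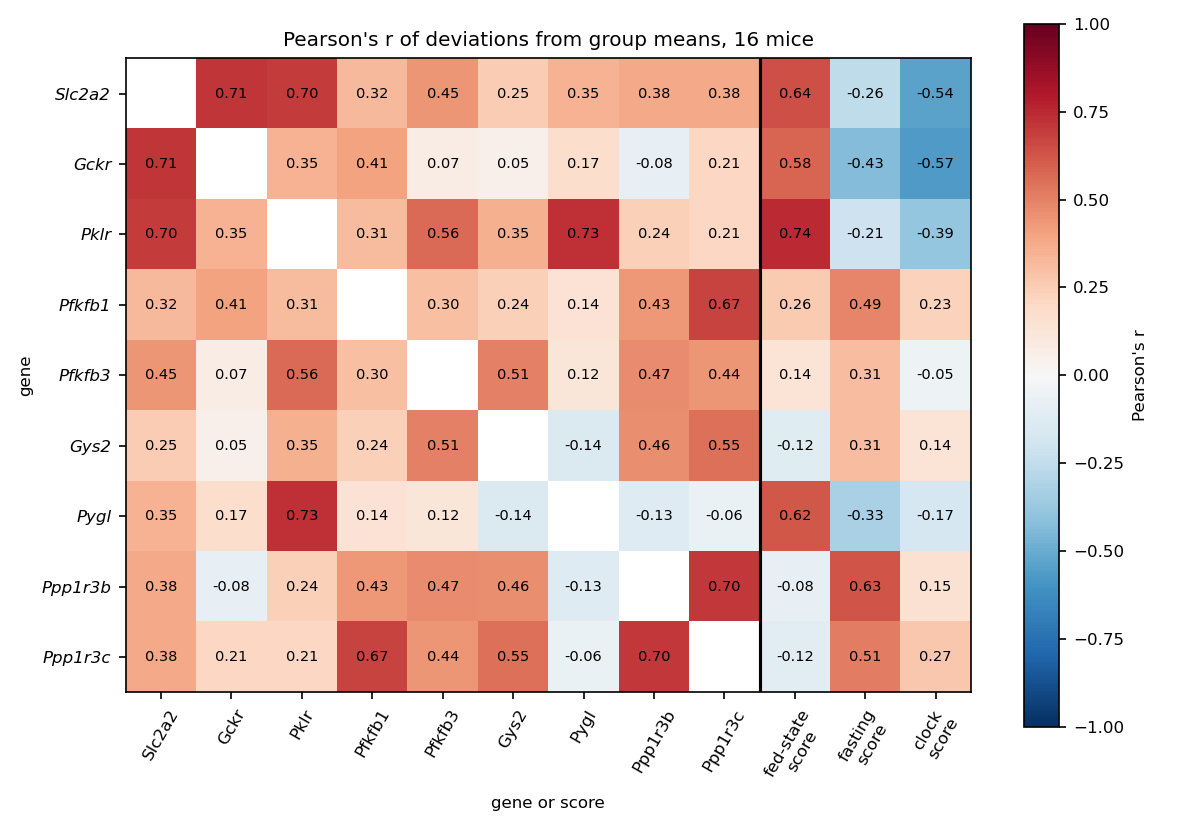
Pearson r over 16 mice between the 9 genes and the 3 scores, and among the 9 genes, on deviations from group means (colour scale from -1 to 1, r printed in each cell). Pklr, Slc2a2, Pygl and Gckr have their most positive score value with the fed-state score (0.74 for Pklr), and Ppp1r3b and Ppp1r3c with the fasting score (0.63 and 0.51).

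The mean level of the fed-state genes was 4.47 ± 0.32 (SD, n = 6) in Conv + PBS, 4.26 ± 0.40 (SD, n = 5) in Conv + LM and 3.96 ± 0.27 (SD, n = 5) in Conv + OM(HFD) mice. All 12 were lower in Conv + OM(HFD) vs. Conv + PBS, 7 of them at an unadjusted limma p under 0.05 (beside 3.28% of all genes), 5 by the exact permutation test and none at an adjusted p. In Conv + LM vs. Conv + PBS and in Conv + OM(HFD) vs. Conv + LM alike, 10 were lower and 2 higher, with 1 at that limma p and 1 by the exact test. From these same arrays the paper had reported lower expression of lipogenic genes with the HFD-microbiota. The list was also chosen with earlier results of these data known. These counts are therefore a description and no independent evidence. The mean level of the fed-state genes was also added to the fit as a further term, again once the values had been seen. This mean itself differed between the groups and went with several of the 9 genes. The fit therefore cannot tell a part of the group from a part of the mean, and a smaller difference in it is given as a value only. The log2 difference between Conv + OM(HFD) and Conv + PBS was then 0.00 for Pklr (limma p of 0.995), -0.08 for Slc2a2 (limma p of 0.671) and -0.14 for Pygl (limma p of 0.214), and the limma p was under 0.05 for 0 of the 9. In the same fit Gys2 differed from Conv + PBS by -0.18 in Conv + OM(HFD) (limma p of 0.0982) and by -0.22 in Conv + LM (limma p of 0.0199). Of the 14 fasting-induced genes 11 were higher in Conv + OM(HFD) vs. Conv + PBS, with 0 at an unadjusted limma p under 0.05.

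**Figure D4:**
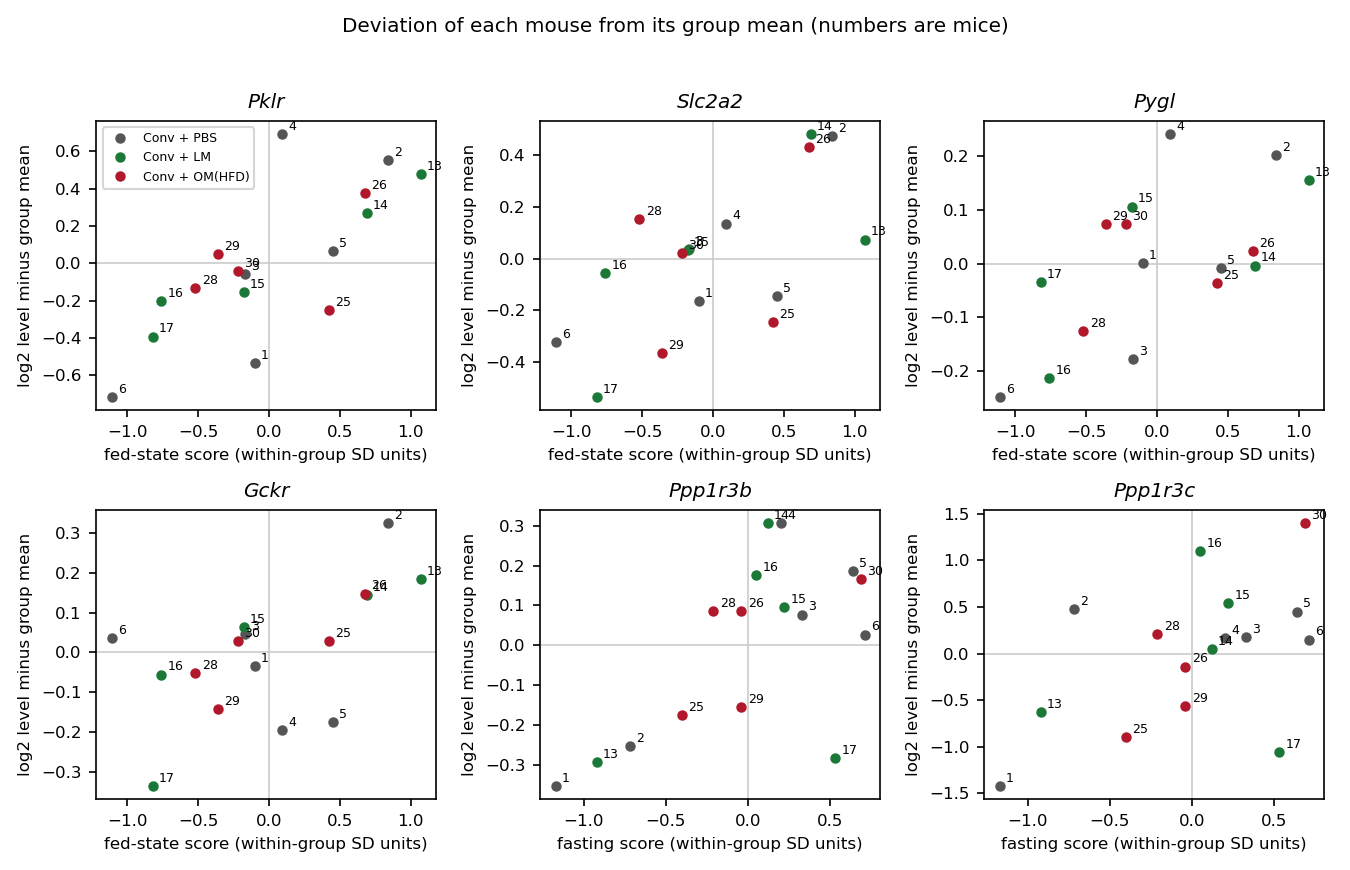
Levels of 6 genes (vertical axes: log2 level minus the group mean) against a score (horizontal axes: mean of the score genes in units of their SD within groups; fed-state for Pklr, Slc2a2, Pygl and Gckr, fasting for Ppp1r3b and Ppp1r3c), each point 1 of the 16 mice with its number and coloured by group. Pklr and Slc2a2 run upward along the fed-state score (r 0.74 and 0.64), and mouse 1, at -1.17 on the fasting score, is the lowest point for Ppp1r3b and Ppp1r3c.

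The fasting score went with 2 of the 9 genes at an unadjusted limma p under 0.05, both in the positive direction, beside 20.4% of all genes and 11.6% in that direction. Counting both directions, 2 of the 9 is near the share of all genes, and the genes are given as values. Ppp1r3b had an r of 0.63 (permutation p = 0.0224) and a rho of 0.50 (permutation p = 0.0750; limma p = 0.0142, adjusted p = 0.132). Ppp1r3c had an r of 0.51 (permutation p = 0.0430) and a rho of 0.41 (permutation p = 0.12; limma p = 0.0409, adjusted p = 0.225). Both relations rested on few mice: without Conv + PBS mouse 1 and Conv + LM mouse 13 the r was 0.38 and 0.21. By group, the r of Ppp1r3b was 0.83 in Conv + PBS, 0.32 in Conv + LM and 0.66 in Conv + OM(HFD) mice. That of Ppp1r3c was 0.66, 0.11 and 0.89 in the same order. Without Conv + PBS mouse 1 alone the limma p was 0.0655 for Ppp1r3b (slope 0.11) and 0.242 for Ppp1r3c (slope 0.23). Without mice 1 and 25 their r was 0.47 and 0.24, and that of Pklr, Gckr and Slc2a2 with the fasting score was -0.66, -0.58 and -0.53. The limma p of Ppp1r3c was also over 0.05 without Conv + PBS mouse 5, Conv + LM mouse 13 or 15 or Conv + OM(HFD) mouse 25 or 30 (0.0544 to 0.126, slopes 0.30 to 0.42). It was 0.0632 after quantile normalization and 0.0651 with the clock score as a term (slopes 0.39 and 0.40), and that of Ppp1r3b was 0.0640 after quantile normalization (slope 0.11). That of Pfkfb1 was under 0.05 without Conv + PBS mouse 2 or Conv + LM mouse 13 or 17 (0.0315 to 0.0463, slopes 0.11), and those of Gckr (0.0498, slope -0.10) and Pklr (0.0277, slope -0.23) were so without Conv + PBS mouse 1. Pfkfb1 had a limma p of 0.0353 with the mean of all probes (slope 0.10), and Pfkfb3 one of 0.0444 with the clock score as a term (slope 0.32).

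The clock score went with Gckr and Slc2a2 at an unadjusted limma p under 0.05, both in the negative direction, beside 22.0% of all genes and 9.69% in that direction. Gckr had an r of -0.57 (permutation p = 0.0263) and a rho of -0.55 (permutation p = 0.0406; limma p = 0.0397, adjusted p = 0.200). Slc2a2 had an r of -0.54 (permutation p = 0.0581; limma p = 0.0375). By group, the r of Slc2a2 was -0.70 in Conv + PBS, -0.86 in Conv + LM and -0.08 in Conv + OM(HFD) mice. That of Gckr was -0.42, -0.96 and -0.22 in the same order. Without Conv + LM mouse 17 the limma p was 0.241 for Gckr (slope -0.05) and 0.223 for Slc2a2 (slope -0.10), and that of Ppp1r3c was 0.0101 (slope 0.50). The limma p of Slc2a2 was also over 0.05 without Conv + PBS mouse 2 or 6, Conv + LM mouse 14 or Conv + OM(HFD) mouse 28 or 29 (0.0538 to 0.0774, slopes -0.17 to -0.14). That of Gckr was so without Conv + PBS mouse 2, Conv + LM mouse 13 or 14 or Conv + OM(HFD) mouse 26 or 29 (0.0539 to 0.0805, slopes -0.10 to -0.08). With slide as a block neither was under 0.05: the slope was -0.14 for Slc2a2 (limma p of 0.1003) and -0.08 for Gckr (limma p of 0.109). Gckr had a limma p of 0.0530 with normexp background correction. Without mice 1 and 25 the r with the clock score was -0.77 for Slc2a2, -0.65 for Pklr, -0.63 for Gckr and -0.58 for Pfkfb3. None of the 27 relations had an adjusted p under 0.05, where 0%, 3.17% and 6.67% of all genes had one with the fed-state, fasting and clock score.

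Among the other listed genes of glucose handling, 6 of 63 had an adjusted p under 0.05 with the clock score (beside 6.67% of all genes), 2 of 62 with the fasting score (beside 3.17%) and 0 of 62 with the fed-state score (beside 0%). With the fasting score the count is at the share of all genes, and the genes are given as values. Per SD of the clock score, Srebf1, the gene of SREBP-1c and itself in the fed-state list, moved by -0.62 (adjusted p = 0.00347 by limma). Hnf4a, a hepatocyte transcription factor, moved by 0.26 (adjusted p = 0.00386), and Irs2, an insulin receptor substrate that is in the fasting list, by 0.44 (adjusted p = 0.00669). Gyg, which encodes the glycogen primer glycogenin, moved by -0.31 (adjusted p = 0.00443). Pgk1, which encodes phosphoglycerate kinase, moved by 0.11 (adjusted p = 0.0325), but its adjusted limma p was 0.0546 to 0.0981 without any 1 of Conv + PBS mice 2 and 6, Conv + LM mouse 13 and Conv + OM(HFD) mice 25, 29 and 30 (slopes 0.09 to 0.11). The slope of Pgk1 was 0.04 with the authors' processed values (adjusted limma p 0.506), 0.08 with normexp (0.184), 0.06 after quantile normalization (0.166), 0.15 with the mean of all probes (0.125), 0.10 with slide as a block (0.0865) and 0.11 without mice 1 and 25 (0.0993). Slc2a5, the fructose carrier gene, moved by -0.30 (adjusted p = 0.0441), and its adjusted limma p was 0.0506 to 0.130 without any 1 of Conv + PBS mice 2 to 6, Conv + LM mice 13, 15, 16 and 17 and Conv + OM(HFD) mice 25, 26 and 29 (slopes -0.32 to -0.23). It was 0.131 with slide as a block (slope -0.25) and 0.132 without mice 1 and 25 (slope -0.29). With the fasting score, Hnf4a (0.25, adjusted p = 0.0172) lost this without Conv + LM mouse 13 (0.23, adjusted p = 0.0569), by limma. Srebf1 (-0.52, adjusted p = 0.0449) lost it without any 1 of Conv + PBS mice 1 to 6, Conv + LM mice 13, 16 and 17 and Conv + OM(HFD) mice 25, 26 and 30 (slopes -0.55 to -0.45, adjusted limma p 0.0544 to 0.0993). With the clock score as a further term the fasting slope of Hnf4a was 0.09 (adjusted limma p 0.454) and that of Srebf1 was -0.10 (0.813). That of Hnf4a was also over 0.05 after quantile normalization (0.20, adjusted limma p 0.0501) and without mice 1 and 25 (0.21, 0.0573). That of Srebf1 was so after quantile normalization, with the authors' processed values, the mean of all probes, slide as a block, and without mice 1 and 25 (slopes -0.53 to -0.51, adjusted limma p 0.0546 to 0.122).

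Among the 36 pairs of the 9 genes, 32 had a positive r over the deviations from group means, with a median of 0.35, against a median of 0.02 between the 9 genes and all genes. By limma, 6 of the 36 pairs had an unadjusted p under 0.05 in both directions of the fit. Of all 183123 fits of a gene on 1 of the 9, each in a single direction, 7.90% had one, so these shares are not the same measure. At an adjusted p it was 0 of either. The r of Pklr with Pygl was 0.73 (permutation p = 0.0120) and rho was 0.70 (permutation p = 0.0124; limma adjusted p = 0.437), with 0.78 and 0.73 on the 2 slides and 0.54 without Conv + PBS mice 4 and 6. Slc2a2 and Gckr had an r of 0.71 (permutation p = 0.00544) and a rho of 0.61 (permutation p = 0.0217; limma adjusted p = 0.430), which was 0.49 without the 2 farthest mice. Slc2a2 and Pklr had an r and a rho of 0.70 (permutation p = 0.00215 and 0.00396; limma adjusted p = 0.395), and 0.71 without the 2 farthest mice.

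Ppp1r3b and Ppp1r3c had an r of 0.70 (permutation p = 0.00385) and a rho of 0.63 (permutation p = 0.0179; limma adjusted p = 0.405), with 0.52 and 0.87 on the 2 slides. Pfkfb1 and Ppp1r3c had an r of 0.67 (permutation p = 0.0115), which was 0.36 without Conv + PBS mouse 1 and Conv + OM(HFD) mouse 30, so that it rested on these mice. With mice 1 and 25 left out, 27 of the 36 pairs had a positive r and the median was 0.16. The r was then 0.79 for Pklr and Pygl, 0.75 for Slc2a2 and Gckr, 0.68 for Slc2a2 and Pklr, and 0.58 for Ppp1r3b and Ppp1r3c.

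The genes whose deviations lay nearest to those of each member over the 16 mice were taken by the size of r, 3 for each, and are given as a description. For Slc2a2 they were Fas (-0.92), Hist2h3b (-0.92) and A930007I19Rik (0.90), and for Gckr they were Arid5a (-0.93), Adprm (0.89) and Pigv (0.89). For Pklr they were Gm32117 (-0.84), 2410006H16Rik (-0.84) and Plscr4 (0.83). Pfkfb1 lay nearest to Bhmt2 (0.88), Paip1 (0.85) and Snx20 (-0.85), and Pfkfb3 to Add3 (0.86), Tle1 (0.85) and an unnamed transcript (0.85). The nearest named genes were Nfatc2 (-0.90) and Cyp2c44 (0.87) for Gys2, Setd6 (0.92) and Zfp960 (-0.86) for Pygl, Ccdc25 (0.93) for Ppp1r3b, and Lrmp (-0.89), Neurl3 (-0.88) and Rpl23 (0.88) for Ppp1r3c. None of these relations had an adjusted p under 0.05 by limma. By size of r, the nearest other member was at rank 39 of 20347 genes for Pygl and at rank 1178 for Pfkfb3, the extremes of the 9.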

How the data were processed

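Liver RNA was labelled with Cy3 and hybridised to Agilent 8x60K arrays, 1 per mouse, on 2 slides that each held all 3 groups. The authors deposited Feature Extraction 10.10.1.1 scanner files, whose processed signal intensity is background-subtracted by that software, and a table of log2 values. The deposited log2 values equalled the log2 of the quantile-normalized median intensity to within 0.132. They were used as an alternative only. Here, log2 of the processed signal minus each array's 75th percentile was computed. Control spots and spots flagged as outliers were left out (118 probes that passed the filter), spots of a probe were averaged, and probes well above background on at least 5 arrays were kept, with the probe of the highest mean for each gene. No spot was saturated. Groups were compared in 1 fit with limma 3.58.1 (R 4.3.3), with Benjamini-Hochberg adjustment over 20348 genes. Each member was also tested by an exact two-sided permutation test over mice (smallest possible p 0.00216 for 5 against 6 mice and 0.00794 for 5 against 5). Correlations used deviations from group means and 100000 permutations within groups, two-sided. The steps were tested on simulated data. All 9 symbols and accessions matched RefSeq. The genes named were the members, the listed genes of the pathway with an unadjusted p under 0.05 between groups (at most 5 for each role, by p) or an adjusted p under 0.05 with a score, and for each member the 3 genes with the largest absolute r. Some listed genes that meet this rule are not reported here. Members and lists were chosen with earlier results of these data known. The number of arrays limits the precision, and labels do not say whether mice of a group shared a cage. Figures were drawn with matplotlib 3.10.9 (Python 3.11.15).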

Additional observations from a re-analysis of the deposited data

Results flagged for a closer look

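Conv + PBS mouse 1 was far from the other 5 vehicle mice for both Gys2 and Ppp1r3c. Its Gys2 level was 6.78 against 6.99 to 7.07 in the others, and its Ppp1r3c level was -0.07 against 1.50 to 1.83, on the scale of log2 intensity minus the array's 75th percentile. The distance exceeded the 95% critical value of Dixon's test in these 2 of 27 checks (9 genes in 3 groups). Chance alone gives about 1 in 20. The same mouse had the highest neutrophil and Kupffer cell markers of all mice, with a log2 of the sum of 4.42 and 7.04, and the part of these in its levels was not tested.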

How the results depend on the processing

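No paired analysis was possible because the groups share no replicate numbers. Counts are genes at an unadjusted limma p under 0.05, and 0 of the 9 genes passed at an adjusted p under any alternative. In Conv + OM(HFD) vs. Conv + PBS, 2 of the 9 genes were counted. This became 1 with quantile normalization, without the filter on dim probes, or with mice 1 and 25 left out, and 0 with the fed-state mean as a term. With the methods' t-test it stayed 2, but with Gys2 in place of Slc2a2. With array weights Pklr was added. In Conv + LM vs. Conv + PBS the 1 gene became 2 when only the compared groups were fitted or with the methods' t-test, and stayed 1 with Pfkfb1 in place of Gys2 after quantile normalization and with the authors' values. Of the other listed genes, the 2 in Conv + OM(HFD) vs. Conv + PBS became 6 with the mean of all probes. The 4 in Conv + LM vs. Conv + PBS became 2 without the filter or with the mean of all probes, and 7 with the fed-state mean. The 1 in Conv + OM(HFD) vs. Conv + LM became 0 with normexp, the authors' values, probes above background on all arrays, the compared groups only, the t-test, or mice 1 and 25 left out. The last setting and the fed-state mean were chosen after seeing the data. Differences that turned direction, none of them past the threshold on either side, were these. With array weights, Gckr was -0.044 and Pfkfb3 -0.032 in Conv + LM vs. Conv + PBS. With the mean of all probes, Pfkfb3 was 0.27 against Conv + PBS and 0.17 against Conv + LM in Conv + OM(HFD), and -0.03 and -0.13 without mouse 28. Without mice 1 and 25, Pfkfb3 was -0.11 in Conv + LM vs. Conv + PBS and Ppp1r3c 0.13 in Conv + OM(HFD) vs. Conv + LM. With the fed-state mean, Gckr was 0.047, Pfkfb3 0.024 and Pklr 0.0014 in Conv + OM(HFD) vs. Conv + PBS, Slc2a2 was 0.029 in Conv + LM vs. Conv + PBS, and Pklr was 0.080 in Conv + OM(HFD) vs. Conv + LM. The median of the 9 genes turned to -0.044 with array weights and to -0.11 without mouse 1 in Conv + LM vs. Conv + PBS, and to 0.024 with the fed-state mean in Conv + OM(HFD) vs. Conv + PBS. Slopes (log2 per SD of a score) that turned, also not past the threshold, were, for the fed-state score, Gys2 0.030 and Ppp1r3b 0.011 with quantile normalization, Gys2 0.026 and Ppp1r3b 0.0057 with the authors' values, Gys2 0.031 without a group term, and Ppp1r3b 0.0094 and Ppp1r3c 0.087 with the clock score as a term. For the fasting score they were Slc2a2 0.072 and Pklr 0.054 with the clock score as a term, and Pfkfb3 -0.14 and Gys2 -0.018 without mice 1 and 25. For the clock score they were Gys2 -0.030 and Ppp1r3b -0.0046 with quantile normalization, Gys2 -0.023 with the authors' values, Pfkfb3 0.0098 with slide as a block and 0.053 with the mean of all probes, and Gys2 -0.019 and Ppp1r3b -0.0063 without mice 1 and 25. The cause of these changes was not tested. Leaving out each mouse in turn gave 1 to 4 of the 9 genes and 2 to 4 of the other listed genes in Conv + OM(HFD) vs. Conv + PBS, 0 to 2 and 0 to 5 in Conv + LM vs. Conv + PBS, and 0 to 1 and 0 to 4 in Conv + OM(HFD) vs. Conv + LM. Differences that spanned 0 were Ppp1r3b -0.019 to 0.11, Ppp1r3c -0.10 to 0.47 and Pfkfb3 -0.34 to 0.10 in Conv + OM(HFD) vs. Conv + PBS, then Pfkfb3 -0.11 to 0.32, Gckr -0.034 to 0.094 and Slc2a2 -0.22 to 0.036 in Conv + LM vs. Conv + PBS, then Ppp1r3c -0.44 to 0.18 in Conv + OM(HFD) vs. Conv + LM. Slopes on the fed-state score that did so were Ppp1r3b -0.058 to 0.029, Gys2 -0.026 to 0.00059 and Ppp1r3c -0.24 to 0.016. Slopes on the fasting score that did so were Pfkfb3 -0.067 to 0.26 and Gys2 -0.0043 to 0.047. Slopes on the clock score that did so were Pfkfb3 -0.13 to 0.048, Pygl -0.046 to 0.0012, Gys2 -0.0043 to 0.037, Pfkfb1 -0.014 to 0.090 and Ppp1r3c -0.0051 to 0.50. The arrays number 5 or 6 a group, so the 95% intervals of the 9 genes span differences of either sign for most of them, and small differences cannot be told from the spread between mice.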
